A study of Homo sapiens with 12 samples.

Results

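The HOX genes are the homeobox genes of 4 chromosomal clusters, and they were followed here in HEK293T, a line of human embryonic kidney origin that carries SV40 large T antigen. The members are the 39 protein-coding genes whose symbol is HOXA, HOXB, HOXC or HOXD followed by a number, of 58735 genes in the count tables and 19951 protein-coding ones. On GRCh38, HOXA spans 11 members at chr7:27092993-27200106, HOXB 10 at chr17:48528526-48729178, HOXC 9 at chr12:53938765-54056030 and HOXD 9 at chr2:176092891-176190907. RNA was taken 24 h after transfection and sequenced in 12 libraries, 3 in each of 4 groups. The miR-211 cells had 500 ng of a plasmid for this microRNA and the Control cells a control plasmid. The U1 siRNA WT cells had 1 nM of an siRNA against U1, the small nuclear RNA that pairs with the start of introns, and the Scram WT cells a control oligo. The labels do not say what WT stands for or whether replicates are separate cultures, so a p-value here reflects only how far these libraries spread, and that spread may be technical. All groups share the same parent line and carry a transfected agent, and no untransfected group was analysed here. By the labels, at least 50% of cells took up plasmid and U1 was lowered by 30%, so a library can also hold cells that were not reached. In such bulk RNA, fewer cells of a type and less RNA per cell cannot be told apart.

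HOX proteins are transcription factors that bind DNA through a homeodomain and give the body axis and the limbs their regional identity. Within a cluster the genes lie in the order of their paralogue numbers, and in embryos low numbers are used early and towards the head, high numbers later and towards the tail. HOX proteins bind DNA together with the TALE homeodomain proteins PBX and MEIS, Polycomb complexes keep silent HOX genes off, and MLL complexes keep active ones on. In the mouse kidney the paralogues numbered 11 are needed for the ureteric bud to form.

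Library totals ran from 4515728 to 9290686 read pairs assigned to genes. MIR211, the gene of the transfected microRNA, had 1646, 1997 and 1976 counts in the miR-211 libraries, against 1, 9 and 1 in the Control libraries. The summed level of 15 annotated U1 genes was 18.9, 13.95 and 17.1 CPM (a count scaled by its library's total) in U1 siRNA WT, against 19.4, 19.3 and 16.5 CPM in Scram WT, and both groups overlapped. These gene copies are nearly identical, and how their reads were shared out is uncertain. In U1 siRNA WT replicate 2, 44.5% of uniquely mapped pairs lay outside annotated exons, against 14.5% to 25.5% in the other 11 libraries. Of the markers fixed for HEK293 cells, NEFL reached 60.6 TPM and VIM 31.2 TPM, whereas the renal genes PAX2 and LHX1 were at 0.0992 and 0.128 TPM. Summed fibroblast markers were 3.00 to 17.1 CPM in U1 siRNA WT and 3.90 to 6.57 CPM in Scram WT. Melanocyte markers were 12.5 to 22.6 against 14.4 to 16.5 CPM, and blood markers 0.631 to 2.66 against 0.678 to 0.753 CPM. Each of these marker sets was highest in U1 siRNA WT replicate 2, and their part in the results was not tested.

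HEK293T cells carried RNA of most HOX genes. Between genes, levels are compared as TPM, which divides counts by exon length before scaling each library to the same sum. By the mean of 12 libraries, 25 of 39 members (64.1%) reached at least 1 TPM, against 54.3% of all protein-coding genes, and 8 reached at least 10 TPM. The highest was HOXD13 with 45.1 ± 5.24 TPM (SD over 12 libraries), above 87.5% of protein-coding genes. HOXC10 followed with 30.5 ± 4.04 TPM, HOXB7 with 24.4 ± 2.50 TPM and HOXA5 with 17.3 ± 3.03 TPM. Of the 38 steps between neighbours in the order of levels, 30 were no larger than the greater SD of the pair. The 12-library ranges were separate at 1 step, between HOXB7 and HOXA5, in this order by TPM over all exon bases. The members just above 1 TPM were HOXC4 (1.39) and HOXB3 (1.21), and the members just under it were HOXB13 (0.945), HOXB8 (0.867) and HOXC6 (0.862).

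**Figure D1:**
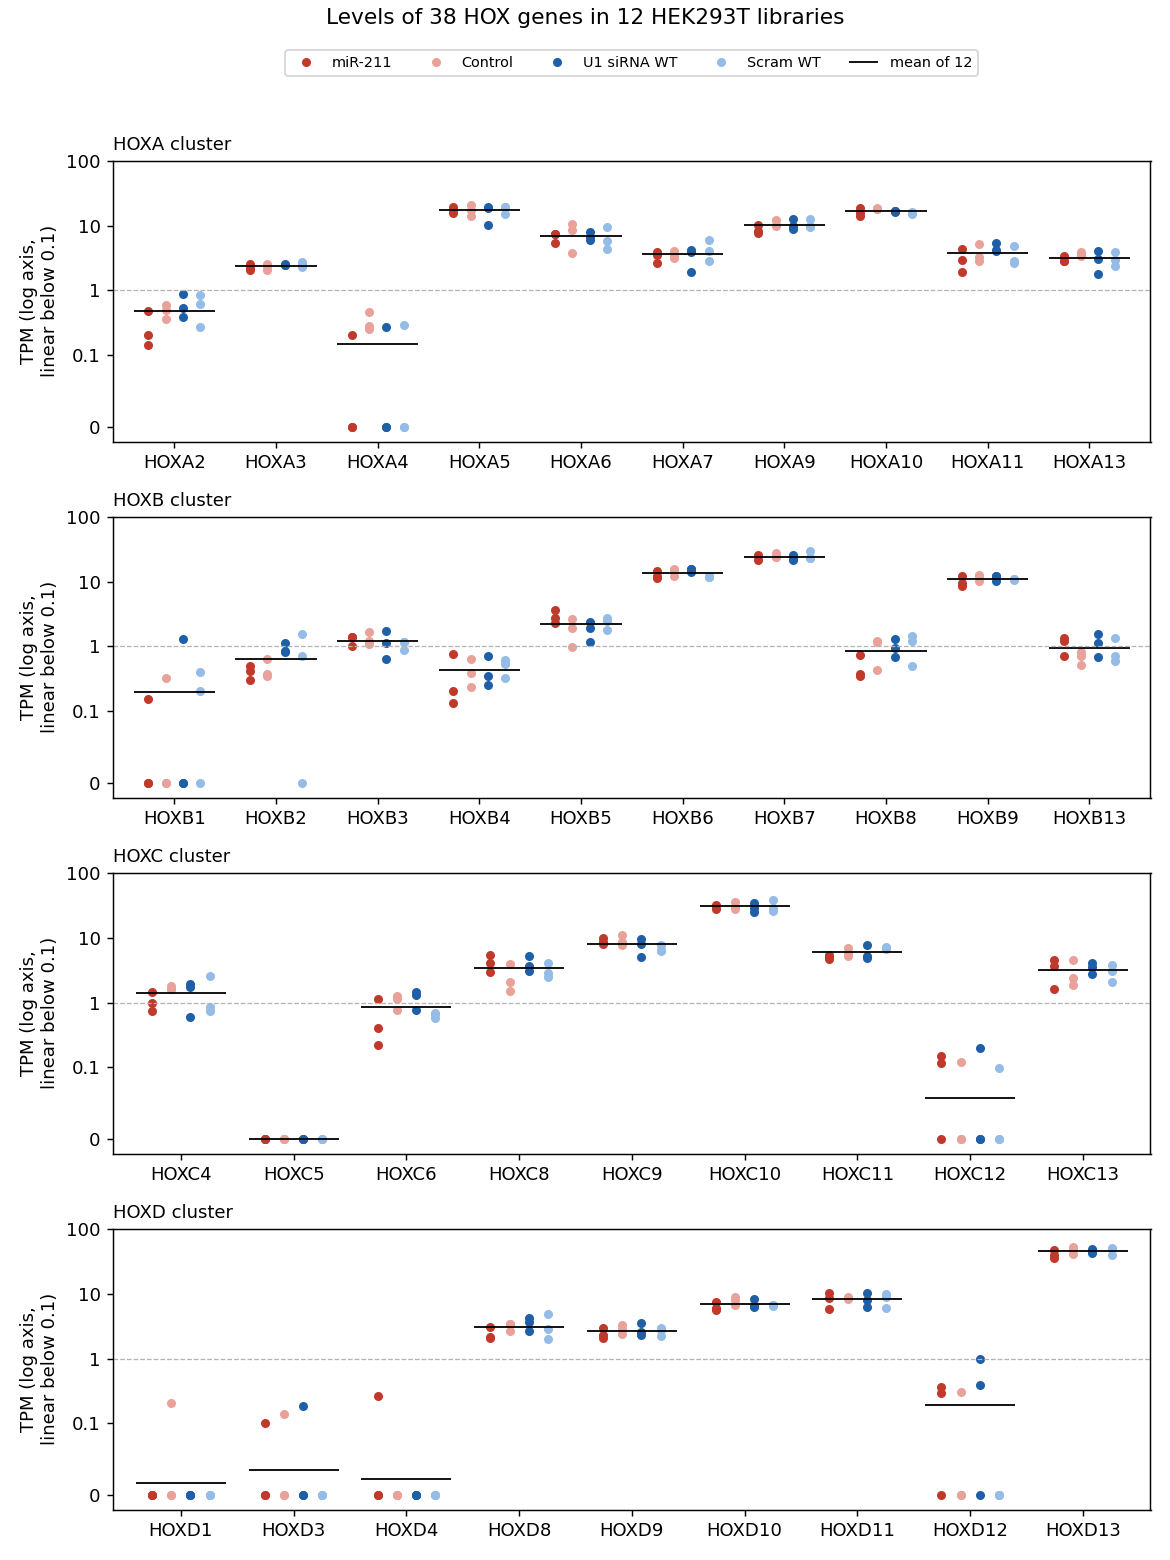
Levels of 38 HOX genes in TPM on a log axis that is linear below 0.1, by cluster and paralogue number, with 1 point for each of 12 libraries coloured by group and a line at the mean of 12. HOXD13 is highest at 45.1 TPM, HOXC5 is at 0, and the 4 groups lie over each other for most genes.

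In the HOXD cluster, RNA was concentrated at the high-numbered end. HOXD13, which shapes digits and the genital tubercle, carried 2721 of the cluster's 4068 counts. HOXD13 had 26.2, 35.3 and 30.1 CPM in miR-211 cells, 35.7, 37.7 and 30.2 CPM in Control, 35.9, 33.9 and 31.0 CPM in U1 siRNA WT and 37.1, 37.3 and 28.95 CPM in Scram WT. Its lowest library of all was miR-211 replicate 1, and both pairs of groups overlapped. HOXD11 and HOXD10 act in the forearm and hindlimb. HOXD11 had 4.12, 6.03 and 7.24 CPM in miR-211 cells, 6.10, 5.61 and 5.88 CPM in Control, 7.25, 4.43 and 5.57 CPM in U1 siRNA WT and 4.22, 6.27 and 6.78 CPM in Scram WT. HOXD10 had 5.11, 5.44 and 6.73 CPM in miR-211 cells, 5.78, 6.91 and 7.88 CPM in Control, 5.83, 7.53 and 5.57 CPM in U1 siRNA WT and 5.72, 5.93 and 5.92 CPM in Scram WT. Both genes were also lowest in miR-211 replicate 1, within ranges that overlapped between groups. HOXD8 and HOXD9 stood at 3.09 and 2.68 TPM. At the low-numbered end HOXD1, HOXD3 and HOXD4 had 1, 3 and 1 counts in all 12 libraries together.

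HOXD12 lies between the strongly read HOXD13 and HOXD11, yet it had 6 counts in all 12 libraries. The 250 bases before the RefSeq start of HOXD13 and of HOXD12 are shown because these adjoining genes differ most in level within the cluster; capitals mark CpG pairs (GRCh38.p14, plus strand, chr2:176092471-176092720 and chr2:176099545-176099794).
HOXD13: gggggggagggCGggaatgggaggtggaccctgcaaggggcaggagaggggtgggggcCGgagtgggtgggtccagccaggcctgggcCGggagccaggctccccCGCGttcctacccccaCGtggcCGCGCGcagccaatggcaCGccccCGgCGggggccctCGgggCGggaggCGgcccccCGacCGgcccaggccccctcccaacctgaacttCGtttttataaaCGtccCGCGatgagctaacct
HOXD12: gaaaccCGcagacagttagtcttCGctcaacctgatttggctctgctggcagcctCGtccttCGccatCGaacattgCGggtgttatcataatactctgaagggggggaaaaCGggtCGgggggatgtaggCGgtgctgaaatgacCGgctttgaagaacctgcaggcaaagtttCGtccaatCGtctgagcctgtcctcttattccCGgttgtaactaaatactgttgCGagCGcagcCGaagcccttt
The last 65 bases of the HOXD12 stretch lie inside the gene as GENCODE 29 annotates it, and 0 bases of the HOXD13 stretch do. The HOXD13 gene of GENCODE 29 starts further on, at chr2:176092891. Bases just after the RefSeq start were found in a GENCODE 29 transcript for HOXD12 but not for HOXD13. The 2 stretches thus do not sit alike relative to the GENCODE starts. The HOXD13 stretch had a GC content of 74.0% and 21 CpG, and the HOXD12 stretch 53.2% and 16. Searched on both strands, HOXD13 held the TATA box TATAAA, the CCAAT box and the GC box GGGCGG, and HOXD12 of these held the CCAAT box alone. Promoters of 20 members are in the RefSeq table, in 27 entries of 26 distinct stretches, 7 of them entries of HOXA3. HOXC4 and HOXC5 share 1 stretch, with 14 CpG. CCAAT occurred in 66.7% of these entries, against 32.0% of all 35116 entries, TATAAA in 18.5% against 10.7%, and GGGCGG in 48.1% against 42.6%. TGATTNAT, a PBX and HOX binding sequence, occurred in 7.41% against 2.48%, which rests on 2 HOX entries, those of HOXD11 and HOXA2. The median entry had 19 CpG in the HOX genes and 11 in all genes. Taking the entry richest in CpG for each gene, the 12 members of at least 1 TPM had a median of 23.5 CpG (11 to 40) and the 8 under 1 TPM a median of 15 (4 to 31), the shared stretch of HOXC4 and HOXC5 standing in both sets. HOXD1 is in the second set with 31 CpG and 1 count.

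In HOXC, HOXC10, a gene of lumbar motor neurons and the hindlimb, was the highest. HOXC10 had 21.4, 24.7 and 24.2 CPM in miR-211 cells, 22.3, 21.3 and 27.1 CPM in Control, 22.4, 19.9 and 25.8 CPM in U1 siRNA WT and 22.1, 19.8 and 29.4 CPM in Scram WT. Scram WT held both its lowest and its highest library. HOXC9, which sets the thoracic identity of motor neurons, and HOXC11 came next. HOXC9 had 5.60, 4.73 and 4.53 CPM in miR-211 cells, 4.18, 6.04 and 4.68 CPM in Control, 5.36, 2.88 and 4.36 CPM in U1 siRNA WT and 3.54, 4.23 and 3.44 CPM in Scram WT. HOXC11 had 5.44, 5.91 and 5.04 CPM in miR-211 cells, 7.39, 5.61 and 6.15 CPM in Control, 5.68, 8.64 and 5.23 CPM in U1 siRNA WT and 7.90, 7.62 and 6.996 CPM in Scram WT. U1 siRNA WT replicate 2 was the lowest library for HOXC9 and the highest for HOXC11. HOXC8 had 3.46 TPM and HOXC13, a gene of hair and nails, 3.14 TPM, while HOXC12 between HOXC11 and HOXC13 had 5 counts. HOXC5 had 0 counts in each library, which in the pooled 82052206 counts allows up to 0.0366 CPM (3 counts, counting error only). It shares most of its exon bases with a second, noncoding HOXC5 entry on the same strand, and 40.1% of its exon bases could be counted.

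In HOXB, the middle of the cluster was read most. HOXB7 and HOXB6 pattern the thoracic skeleton in mice. HOXB7 had 10.9, 13.1 and 12.7 CPM in miR-211 cells, 11.7, 12.1 and 13.8 CPM in Control, 11.4, 13.3 and 10.6 CPM in U1 siRNA WT and 11.7, 15.1 and 11.4 CPM in Scram WT. HOXB6 had 10.7, 10.05 and 12.8 CPM in miR-211 cells, 10.3, 12.8 and 13.6 CPM in Control, 11.98, 13.7 and 13.6 CPM in U1 siRNA WT and 10.1, 10.2 and 10.4 CPM in Scram WT. For HOXB6 the 3 Scram WT libraries lay close together and under the 3 U1 siRNA WT libraries. HOXB9 had 7.25, 10.6 and 8.15 CPM in miR-211 cells, 8.67, 10.5 and 10.3 CPM in Control, 10.6, 8.86 and 10.5 CPM in U1 siRNA WT and 9.27, 9.32 and 8.93 CPM in Scram WT. HOXB9, a thoracic gene, was lowest in miR-211 replicate 1 and highest in miR-211 replicate 2. HOXB5 had 2.23 TPM and HOXB3 1.21 TPM. HOXB2 and HOXB4 had 40 and 45 counts in all. HOXB1, a hindbrain gene, had 12 counts, 5 of them in U1 siRNA WT replicate 2.

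In HOXA, members with high levels stood beside low ones. HOXA5 acts in lung and diaphragm development, and HOXA10 in the uterus. HOXA5 had 11.04, 9.93 and 8.80 CPM in miR-211 cells, 11.6, 7.91 and 9.62 CPM in Control, 10.7, 5.98 and 10.8 CPM in U1 siRNA WT and 11.2, 10.8 and 8.29 CPM in Scram WT. HOXA10 had 23.2, 19.0 and 17.5 CPM in miR-211 cells, 22.5, 21.6 and 22.3 CPM in Control, 20.5, 20.4 and 20.2 CPM in U1 siRNA WT and 18.7, 19.3 and 19.5 CPM in Scram WT. HOXA5 was lowest in U1 siRNA WT replicate 2, and HOXA10 varied least of the 25 members with at least 100 counts (CV 8.49%). HOXA9 is known for its role in blood stem cells. HOXA9 had 7.74, 8.39 and 10.3 CPM in miR-211 cells, 9.80, 10.1 and 12.02 CPM in Control, 12.9, 9.08 and 9.76 CPM in U1 siRNA WT and 12.5, 9.66 and 9.69 CPM in Scram WT. The miR-211 and Control libraries overlapped for it. HOXA6 had 6.98 TPM, HOXA11 3.72, HOXA7 3.66, HOXA13 3.19 and HOXA3 2.41. HOXA2, the selector gene of the second pharyngeal arch, had 31 counts and HOXA4 had 7.

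Across clusters, levels were higher in the blocks of higher paralogue number. Of 16 members numbered 9 to 13, 13 reached 1 TPM, with a median of 6.50 TPM. Of 11 numbered 5 to 8, 8 did, with a median of 3.46 TPM, and of 12 numbered 1 to 4, 4 did, with a median of 0.458 TPM. The block 9 to 13 held 63.1% of summed HOX TPM (60.0% to 65.9% in single libraries), the block 5 to 8 30.8% and the block 1 to 4 6.18%. On exon bases that no other gene shares, the shares were 61.3%, 32.8% and 5.89%. All 3 members numbered 10 were above 6 TPM, and together they had 54.1 ± 4.51 TPM. The 4 numbered 13 had 52.4 ± 5.56 TPM, of which HOXD13 gave 45.1. The members numbered 12 are the exception in this block, with 0.251 TPM for HOXC12 and HOXD12 together.

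**Figure D2:**
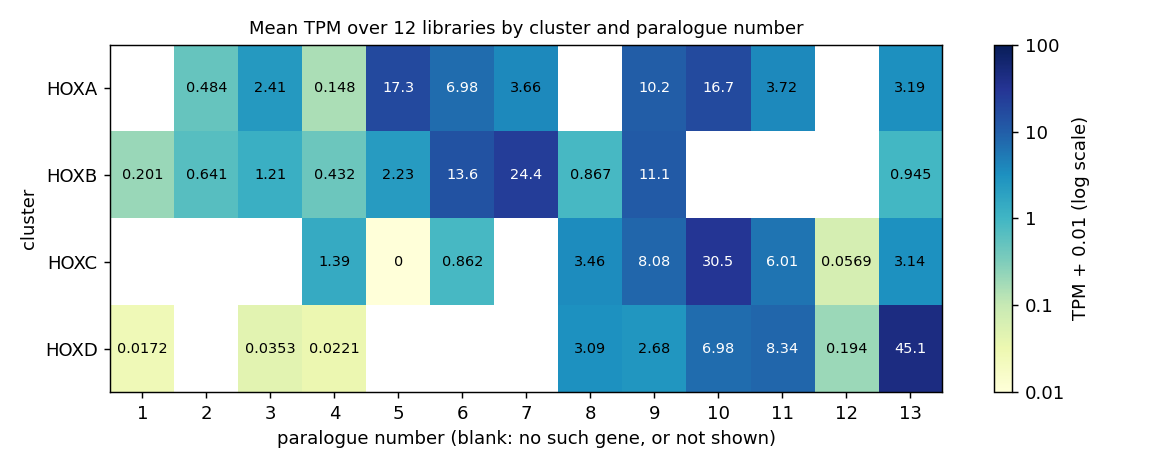
Mean TPM over 12 libraries for 38 HOX genes, with clusters in rows and paralogue numbers in columns; colour follows TPM + 0.01 on a log scale and blanks are genes that do not exist or are not shown. Values of at least 10 TPM sit at numbers 5, 6, 7, 9, 10 and 13, and number 12 is low in both of its clusters.

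Many HOX genes overlap antisense transcripts, which bears on these levels. Exons of 19 members overlap an antisense exon and exons of 18 an exon on their own strand, and 14 members share none. Counted without strand, a pair over exons of 2 genes is given to neither. Where the genes lie on opposite strands the strand columns of the tables add it back, and which of the genes it came from cannot be told. The totals of the 2 strand columns were nearly equal in each library (column 4 over column 3 was 0.990 to 1.10). These libraries thus do not separate the strands. Adding both columns counts such a pair for both genes, so the gains of 2 opposite genes are largely the same pairs. For HOXA10 the strand columns added 2054 pairs to 1664, 55.2% of their total, and HOXA10-AS stood at 74 without strand and 2191 with it. HOXA7 gained 606 pairs on 239, and its partner HOXA-AS3 stood at 79 and 1244. HOXB6 gained 628 on 951, opposite HOXB-AS3 with 233 and 931, and HOXC10 gained 320 on 1948, opposite HOXC-AS3 with 14 and 337. On unshared exon bases HOXA10 reached 22.5 TPM, HOXA7 9.69, HOXB6 20.2 and HOXA6 11.6, against 16.7, 3.66, 13.6 and 6.98 TPM over all exon bases. With both strand columns added the same genes had 29.5, 10.3, 17.9 and 8.58 TPM. The order of levels given earlier depends on this choice. HOXA10 and HOXB6 on unshared bases lay above the 17.3 TPM over all exon bases of HOXA5, which shares none. HOXD13 and HOXB7 share no exon and gained 0 pairs. For HOXD4 only 19.5% of exon bases are unshared, for HOXD3 25.9%, for HOXA7 37.5% and for HOXD1 41.9%, so their counts rest on short stretches. For HOXD4 the overlap is on its own strand and the strand columns add 0 pairs. HOXA4 had 7 pairs and gained 30, HOXD3 had 3 and gained 13, and HOXD1 had 1 and gained 6. HOXC6, just under 1 TPM over all exon bases, reached 1.02 TPM on unshared ones.

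**Figure D3:**
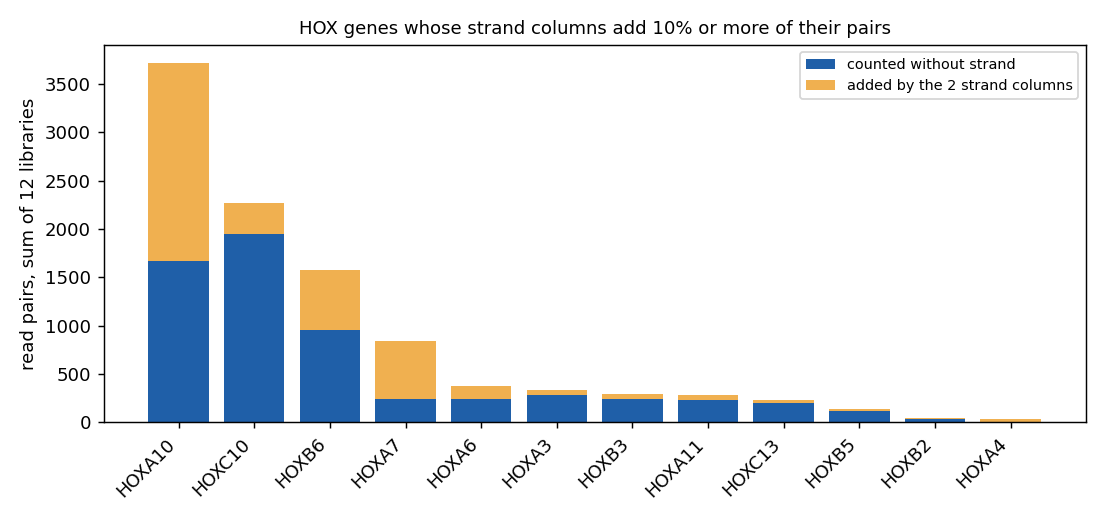
Read pairs summed over 12 libraries for the 12 HOX genes with at least 20 pairs in the strand columns whose strand columns add at least 10% of them, with pairs counted without strand in blue and pairs added by the strand columns in orange. HOXA10 has 1664 and 2054, and HOXA7 has 239 and 606.

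Genes flanking the clusters ranged from nearly silent to strongly expressed. EVX2, the homeobox gene 8.98 kb from HOXD13, had 0.0625 TPM, and EVX1 beyond HOXA13 0.0637 TPM. Next to HOXD1 the mitochondrial import gene MTX2 had 55.7 TPM, and beyond the low-numbered end of HOXA SKAP2 had 27.9 TPM. Within the clusters, 54 annotated genes are not protein-coding, of which 27 had no counts and 17 had at least 20. They include pseudogenes and short RNA entries that lie within the span of longer genes. For such entries 0 counts need not mean that no RNA was read, as a shared pair is given to neither gene. HOTAIR, the antisense RNA between HOXC11 and HOXC12, had 244 counts (3.45 TPM), and HOXB-AS3, HOXA-AS2 and HAGLR had 233, 154 and 55. Of the 8 microRNA genes in the clusters, MIR10B had 40 counts and MIR196A2 had 6, and MIR10A, MIR196A1, MIR196B, MIR615, MIR3185 and MIR7704 had 0. MIR10A, MIR196B and MIR7704 share exon bases with HOXB4, HOXA9 and HOXD1 on the same strand. A pair there is given to neither gene, so their 0 counts do not measure a level. MIR3185 had 41 in the strand columns. These libraries count longer RNA over a gene and say nothing of mature microRNAs.

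Summed HOX RNA varied little over the 12 libraries (CV 4.02%). Summed over all members it was 188.5 ± 8.41 CPM in miR-211 and 203.4 ± 6.16 CPM in Control, and 200.9 ± 5.79 CPM in U1 siRNA WT and 195.3 ± 2.71 CPM in Scram WT (SD, n = 3 each). The 3 miR-211 sums were 179.4, 196.0 and 190.1 CPM, and the Control sums were 204.6, 196.7 and 208.8 CPM. The miR-211 sums lay below the Control sums by a narrow margin, and the other pair overlapped. By cluster, HOXA had 65.2 ± 4.30 CPM over 12 libraries, HOXD 49.7 ± 4.37, HOXC 41.3 ± 1.95 and HOXB 40.7 ± 2.59. The 25 members with at least 100 counts had a median CV of 18.6% (8.49% for HOXA10 to 43.8% for HOXC4). Their spread as chi-square per degree of freedom, which includes counting noise, had a median of 1.38 and was largest in HOXD13 (3.04). In the 8837 genes with 100 to 2721 counts the median was 1.73, with counts not matched beyond that range. The biological coefficient of variation fitted by edgeR over the 4 groups went the other way. Its median was 15.1% in the members tested and 10.8% in all 13520 genes tested, which were not limited to that range of counts. The 2 measures thus set the members against unlike sets of genes. An F test for any difference among the 4 groups (edgeR, Benjamini-Hochberg adjusted p under 0.05) called 0 of 26 members tested and 7 of 13520 genes (0.0518%). At an unadjusted p under 0.05 it found 0 members and 796 genes (5.89%), and the lowest member p was 0.142, for HOXB6.

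**Figure D4:**
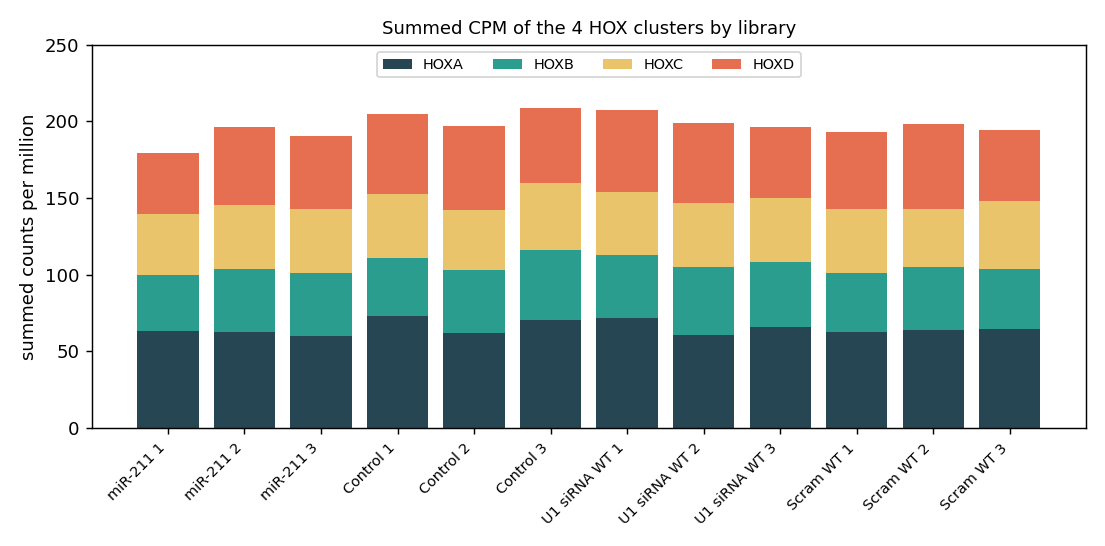
Summed CPM of the HOXA, HOXB, HOXC and HOXD genes in each of 12 libraries, stacked by cluster. The totals run from 179.4 in miR-211 replicate 1 to 208.8 in Control replicate 3, with HOXA the largest share in all 12.

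No HOX gene passed the test between miR-211 and Control cells. Of 25 members that passed the filter on low counts, edgeR called 0, against 1 of all 12685 genes (0.00788%), which is MIR211. At an unadjusted p under 0.05 there were 0 members and 417 genes (3.29%). With DESeq2 and limma-voom 0 members were called too. Fitted log2 fold changes were above 0 for 9 members and below 0 for 16, with a median of -0.11, against 0.01 over all genes (51.8% of which were above 0), and 22 of 25 lay within 0.5 of 0 (96.2% of all genes). The median SE was 0.22 in the members and 0.15 in all genes, so changes of that size, and larger ones, could go uncalled at this depth. The largest fitted change, 0.76 with an SE of 0.40, was not called. HOXC8, a gene of brachial motor neurons, had the smallest p among members with higher values. HOXC8 had 3.46, 1.89 and 2.59 CPM in miR-211 cells, against 1.28, 2.45 and 0.935 CPM in Control cells. The groups overlapped through Control replicate 2, and the log2 fold change was 0.76 (SE 0.40, 95% interval -0.09 to 1.61, unadjusted p = 0.0747). HOXB5 had 2.47, 1.89 and 1.55 CPM in miR-211 cells, against 1.77, 1.30 and 0.668 CPM in Control cells. These overlapped as well, with a log2 fold change of 0.70 (SE 0.41, 95% interval -0.18 to 1.57, unadjusted p = 0.111). On the lower side, HOXA9 had a log2 fold change of -0.24 (SE 0.17, 95% interval -0.59 to 0.12, unadjusted p = 0.175). HOXC4 had 0.659, 1.30 and 0.905 CPM in miR-211 cells, against 1.61, 1.44 and 1.47 CPM in Control cells. HOXC4 was the only member whose groups did not overlap, as in 9.7% of all genes (6.42% with miR-211 lower), and its log2 fold change was -0.58 (SE 0.41, 95% interval -1.46 to 0.30, unadjusted p = 0.184). Leaving out 1 library at a time moved HOXC8 between 0.47 and 1.27 (without Control replicates 3 and 2 in turn), and HOXB5 between 0.38 and 1.00, the lowest without Control replicate 3. It moved HOXA9 between -0.36 (without miR-211 replicate 3) and -0.14 (without Control replicate 3), and HOXC4 between -0.89 (without miR-211 replicate 2) and -0.41. All 4 had a Benjamini-Hochberg adjusted p of 0.996 in edgeR. HOXD13, the highest member, had -0.14 (SE 0.13, 95% interval -0.41 to 0.14, unadjusted p = 0.311).

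MicroRNAs find their targets largely through bases 2 to 8, the seed, and the seeds below are in capitals. Mature sequences are shown for miR-211, for its seed relative miR-204, and for the HOX cluster microRNAs in the RefSeq table, to compare with sites in HOX 3′ UTRs.
hsa-miR-211-5p: uUCCCUUUgucauccuucgccu
hsa-miR-204-5p: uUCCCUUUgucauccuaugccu
hsa-miR-196a-5p: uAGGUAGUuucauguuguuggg
hsa-miR-196b-5p: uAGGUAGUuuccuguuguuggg
hsa-miR-10a-5p: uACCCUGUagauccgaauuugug
The first 2 share a seed, as do both miR-196 sequences. A match of 7 bases to the miR-211 seed was found in annotated 3′ UTRs of 8 of 39 members (20.5%), against 18.4% of 18981 protein-coding genes. They included HOXA3, HOXB5, HOXB6, HOXB7 and HOXD13 with 1 match each and HOXA13 with 4, and HOXC8 alone had an A behind the match, the longer form of site. Sites of the highest member and of HOXC8 are shown with the matched bases in capitals (GENCODE 29 on GRCh38, plus strand).
HOXD13, chr2:176095001-176095029: caggccagtatAAAGGGActtgaagtatt
HOXC8, chr12:54012234-54012262: atctttaacatACTACCTAAAGGGAacct
In HOXC8 the capitals run over 2 adjoining matches, ACTACCT for the miR-196 seed and AAAGGGA for the miR-211 seed. The 8 members with a match were all tested, and 5 had a log2 fold change below 0, with a median of -0.03 and a range of -0.22 to 0.76. Of the 17 tested members with no match, 11 were below 0, with a median of -0.14 and a range of -0.58 to 0.30. HOXC8, with the longest site, had the highest value of all 25, which did not pass the test. Matches to the miR-196 seed were found in 9 of 39 members (23.1%), against 7.77% of protein-coding genes, with 4 in HOXA7, and matches to the miR-10 seed in 3 (7.69%), against 13.4%.

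No HOX gene passed the test between U1 siRNA WT and Scram WT cells either. The comparison asks whether lowering U1 changes gene levels. A count per gene shows no splicing. edgeR called 0 of 23 members tested, and 0 of 12413 genes (0%). At an unadjusted p under 0.05 there were 1 member, HOXB6, and 196 genes (1.58%), and DESeq2 and limma-voom also called 0 genes. Log2 fold changes were above 0 for 15 members and below 0 for 8, with a median of 0.06, against 0.02 over all genes (54.7% of which were above 0), and all 23 tested lay within 0.5 of 0 (94.3% of all genes). HOXB6 had 11.98, 13.7 and 13.6 CPM in U1 siRNA WT cells, against 10.1, 10.2 and 10.4 CPM in Scram WT cells. The groups did not overlap. Its log2 fold change was 0.34 (SE 0.15, 95% interval 0.02 to 0.67, unadjusted p = 0.0398), with a Benjamini-Hochberg adjusted p of 0.9999 in edgeR. Without U1 siRNA WT replicate 2 it was 0.33, and in strand column 4 it was 0.09. HOXA10 was the other member whose groups did not overlap, with a log2 fold change of 0.08; such separation towards higher values occurred in 3.54% of all genes and towards lower ones in 2.92%, where 0 members stood. Among lower members, HOXC11 had -0.23 (SE 0.23, 95% interval -0.74 to 0.27, unadjusted p = 0.332), with -0.16 without U1 siRNA WT replicate 1, -0.44 without replicate 2 and -0.12 without replicate 3. HOXA7 had -0.31 (SE 0.41, 95% interval -1.20 to 0.58, unadjusted p = 0.463), with -0.01 without U1 siRNA WT replicate 2, -0.03 without Scram WT replicate 2, -0.50 without U1 siRNA WT replicate 1 and -0.56 without Scram WT replicate 3.

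Control and Scram WT, the plasmid and the oligo controls, differ in the agent transfected, and no HOX gene passed the test between them. edgeR called 0 of 25 members and 0 of 12650 genes (0%), while 0 members and 986 genes (7.79%) had an unadjusted p under 0.05. DESeq2 called 38 genes and limma-voom 3; limma-voom called 0 members, and DESeq2 gave the members no adjusted p. Log2 fold changes were above 0 for 16 members and below 0 for 9, with a median of 0.02, against -0.00 over all genes (48.8% of which were above 0), and all 25 tested lay within 0.5 of 0 (95.2% of all genes). HOXA10 was the only member whose groups did not overlap, as in 6.5% of genes towards higher values; 0 members separated towards lower ones, as 7.43% of genes did. Its log2 fold change was 0.21 (SE 0.11, 95% interval -0.02 to 0.44, unadjusted p = 0.0708) and its Benjamini-Hochberg adjusted p 0.683 in edgeR. HOXC9 had 0.43 (SE 0.23, 95% interval -0.06 to 0.93, unadjusted p = 0.0830), and 0.26 without Control replicate 2. On the lower side, HOXC11 had -0.23 (SE 0.18, 95% interval -0.61 to 0.15, unadjusted p = 0.218) and HOXB5 -0.35 (SE 0.40, 95% interval -1.20 to 0.51, unadjusted p = 0.401). The value of HOXB5 was -0.02 without Control replicate 3 and -0.65 without Control replicate 1. Both comparisons that use Control share those 3 libraries, as do both that use Scram WT.

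**Figure D5:**
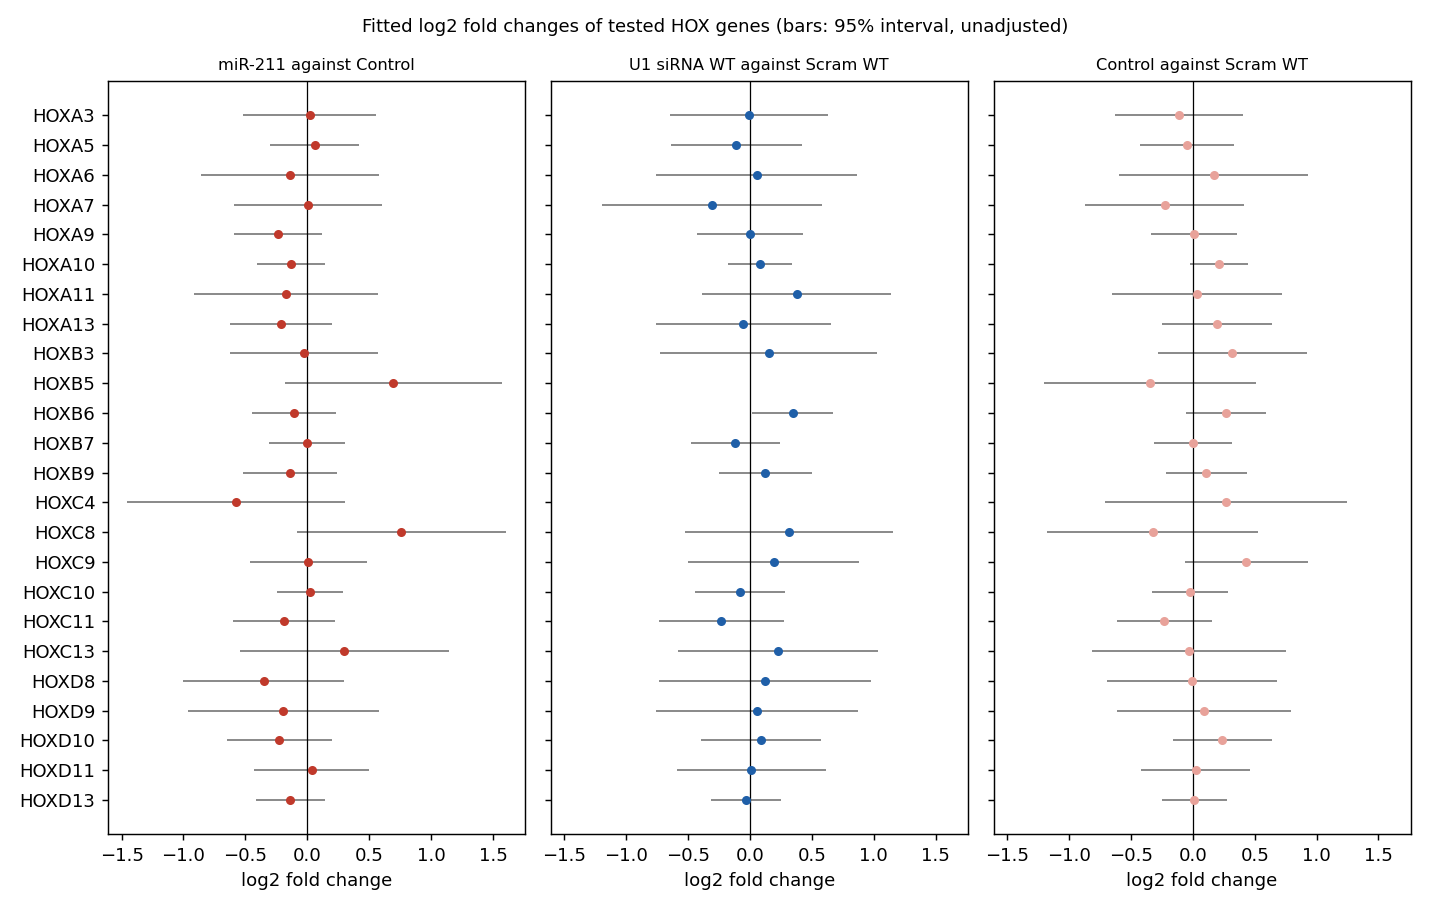
Fitted log2 fold changes (points) with unadjusted 95% intervals (bars) of the HOX genes tested in miR-211 against Control (left, 24 genes), U1 siRNA WT against Scram WT (middle, 22) and Control against Scram WT (right, 24). HOXB6 in the middle panel is the only interval that leaves out 0, and 0 genes shown had an adjusted p under 0.05.

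The partners and regulators of HOX genes were expressed and also passed no test. Among 9 TALE cofactors, 7 reached 1 TPM, led by MEIS1 with 19.5 TPM and PKNOX1 with 17.8 TPM, while PBX2 and PBX3 had 1.54 and 2.88 TPM. In Polycomb repressive complex 2, 10 of 11 genes reached 1 TPM, with the methyltransferase EZH2 at 37.1 TPM and the histone chaperone RBBP4 at 325 TPM. In Polycomb repressive complex 1 there were 14 of 16, led by PCGF1 with 41.6 TPM, and in the MLL and COMPASS list 13 of 15, led by DPY30 with 209 TPM. All 7 insulator and cohesin genes did, CTCF at 16.4 TPM and SMC3 at 164 TPM. Of 8 ParaHox and EVX genes, CDX2, a gut gene that activates posterior HOX genes in mouse embryos, had 13.5 TPM and the other 7 were under 1 TPM. GMNN, whose protein binds HOX proteins, had 339 TPM. In the 3 pairwise comparisons 0 genes of these lists were called by edgeR. Per list, the lowest unadjusted p values between miR-211 and Control were those of AEBP2 (log2 fold change -0.22, SE 0.10, unadjusted p = 0.0385), RNF2 (-0.22, 0.0680), KMT2A (0.17, 0.0930), SMC3 (-0.13, 0.121), PBX2 (-0.35, 0.311) and CDX2 (-0.11, 0.398). Between U1 siRNA WT and Scram WT the smallest was that of EZH1 (-0.28, SE 0.11, unadjusted p = 0.0239), with KMT2B (0.84, unadjusted p = 0.0483) next among the lists, and between Control and Scram WT that of SUZ12 (0.27, SE 0.09, unadjusted p = 0.01002).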

How the data were processed

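The deposited files hold read counts per gene for 12 libraries, not normalized by the authors. The submitters' processing notes name STAR 2.7.2a, GRCh37 and hg19, yet all 58735 gene identifiers are those of GENCODE 29, an annotation of GRCh38. The build of the alignment is not settled, and GENCODE 29 gave the coordinates, exon lengths and 3′ UTRs printed here. Promoter and microRNA sequences are RefSeq's (GRCh38.p14), and members were matched by symbol. The unstranded counts were used, and the 4 summary lines were left out of totals. Read length was 126 nt by the labels. A pair over 2 genes is counted for neither, so overlapping genes are undercounted.

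CPM used the library total, and TPM the union of exon bases. Only genes kept by filterByExpr (minimum count 10) were tested, with the edgeR 4.0.16 quasi-likelihood test (TMM scaling, R 4.3.3) on the 6 libraries compared or on all 12, with p-values adjusted by Benjamini-Hochberg and called under 0.05. DESeq2 1.42.0, limma-voom (limma 3.58.1), other scaling, no filter, each strand column, a replicate block and leaving out each library were alternatives. Unshared exon bases and added strand columns as alternatives for TPM were chosen after seeing the data. Totals of 4515728 to 9290686 set the precision: a count of 0 allows 0.323 to 0.664 CPM in a library (3 counts), counting error only.

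Named genes were the 3 highest members of each cluster by TPM, and per comparison the 2 with the smallest p in each direction, with HOXD13, HOXA10 and HOXB6 added where groups or intervals stood apart. Related genes were named as the highest of a list or the smallest p, others after their values were seen. Some items are not reported here by name, but stay in counts and sums. Members and lists were chosen with earlier results of these data known. Whether replicate numbers pair libraries was checked by correlating same-numbered deviations from group means: they were 0.248, 0.305 and 0.239 for miR-211 and Control, all above 0.1, so the numbers pair libraries there. The printed tests are still those without the block, and the paired fit is an alternative. The SEs, intervals and p-values printed for miR-211 against Control thus leave that pairing out. With the block, edgeR gave 0 members and 943 genes an unadjusted p under 0.05, against 0 members and 417 genes without it. For U1 siRNA WT and Scram WT (0.140, 0.0907, -0.0480) and for Control and Scram WT (0.0418, 0.0273, 0.175) these correlations were not all above 0.1.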

Additional observations from a re-analysis of the deposited data

How the results depend on the processing

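In each of the 56 alternative fits 0 members were called. DESeq2 gave no adjusted p for the members in Control against Scram WT. Over all genes the number called changed more. For miR-211 against Control it was 2 with no filter on low counts, 2 in strand column 3 and 2 in strand column 4, against 1. For U1 siRNA WT against Scram WT it was 7 with no filter, against 0. For Control against Scram WT, against 0, it was 38 with DESeq2, 3 with limma-voom, 51 with no filter, 4 and 6 in strand columns 3 and 4, and 0 to 21 when 1 library was left out (21 without Scram WT replicate 3). For any difference among the 4 groups, against 7, it was 57 with no filter, 11 and 15 in the strand columns, and 2 to 7 when 1 library was left out. With the replicate block it was 1 for miR-211 against Control, with a lowest member adjusted p of 0.687 (edgeR), 0 for U1 siRNA WT against Scram WT, 30 for Control against Scram WT and 14 for the 4 groups. The causes were not tested. All 136 refitted log2 fold changes of the named members kept their direction, and none passed the threshold. Those from DESeq2 in Control against Scram WT had no adjusted p to compare with it. Refits in which the filter left a named member out are not among the 136. Of 60 recomputed cluster sums 55 moved by less than the SD, and of 24 recomputed TPM values 9 did. The filter on low counts kept 13 members, with up to 79 counts over 12 libraries, out of the test in each comparison as reported.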
